A study of Mus musculus with 8 samples.

Results

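Histone deacetylases remove acetyl groups from the lysines of histones and other proteins, and the enzymes studied here are the zinc-dependent ones. Class I enzymes (Hdac1, Hdac2, Hdac3, Hdac8) are mainly nuclear, and Hdac1, Hdac2 and Hdac3 work inside large corepressor complexes. Class IIa enzymes (Hdac4, Hdac5, Hdac7) have weak catalytic activity of their own, bind Mef2 transcription factors and move between nucleus and cytoplasm when they are phosphorylated. Class IIb holds Hdac6, a cytoplasmic tubulin deacetylase, and Hdac10, a polyamine deacetylase, and class IV holds Hdac11, which removes long acyl chains. In adipose tissue these enzymes are known for their part in adipocyte differentiation and in the control of metabolic genes.

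The family was taken as the 10 genes named above, through every array probe annotated to them, which gave 13 of the 25696 probes and 10 of the 16593 named genes. The arrays held total RNA of epididymal white adipose tissue (WAT) from male C57BL6/J mice aged 4 months, 4 angiotensinogen transgenic (Agt Tg) and 4 wild type (Wt). Agt Tg mice overexpress Agt, the precursor of the angiotensins, in adipose tissue, and the study's text names the aP2 promoter for the transgene and adds that macrophages use it too. Per the study's methods all mice had eaten a low fat diet. Nothing in the labels says that arrays came from separate mice beyond their separate names, so the p-values cover only the spread among these 8 arrays, which may be technical. The question was which transcripts differ when Agt is overexpressed, and Hdac4 is 1 of the genes that the study followed as a predicted target of the microRNA miR-690.

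Values below are normalized log2 intensities, differences are Agt Tg minus Wt on that scale, and a probe counts as detected on an array when its detection p-value, the chance of such a signal from negative control beads, was under 0.05. A minimum of 4 arrays with detection was asked of a probe, which kept 11624 probes, and the brightest of a gene's kept probes stood for the gene. Between 11253 and 12284 probes were detected per array, and the correlation of arrays within a group ran from 0.956 to 0.986 over the kept probes. The label was checked with Agt itself, which read 6.74, 8.80, 6.39 and 8.39 on the arrays labelled Agt Tg, against 7.50, 8.87, 8.11 and 8.09 on Wt arrays. Its groups overlapped and its mean was lower on the arrays labelled Agt Tg (difference -0.56, SE 0.48, limma adjusted p = 0.718). The sources used here do not say whether that probe reads the transgene, so each difference is between arrays labelled Agt Tg and arrays labelled Wt. Of the markers of white adipocytes 10 of 11 measured were detected on all 8 arrays, and their mean level was 11.5 to 12.1 on Agt Tg arrays and 11.6 to 12.0 on Wt arrays.

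All 10 members had a kept probe, 12 of the 13 probes were kept and 9 were detected on every array. In the limma fit none of the 10 genes passed an adjusted p of 0.05, and neither did any of the 8285 genes tested (0%, lowest adjusted p 0.224). At an unadjusted p under 0.05, 2 members, Hdac2 and Hdac3, were lower on Agt Tg arrays and 0 were higher, where 5.35% of all genes were lower and 3.93% were higher by that rule. The same 2 members were those whose groups did not overlap, both lower, where 3.31% of all genes were lower and 3.05% higher with groups that did not overlap. Over all 10 members 6 were lower and 4 higher, with a median difference of -0.06, while the median over all genes was 0.01 and 48.0% of genes were lower.

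**Figure D1:**
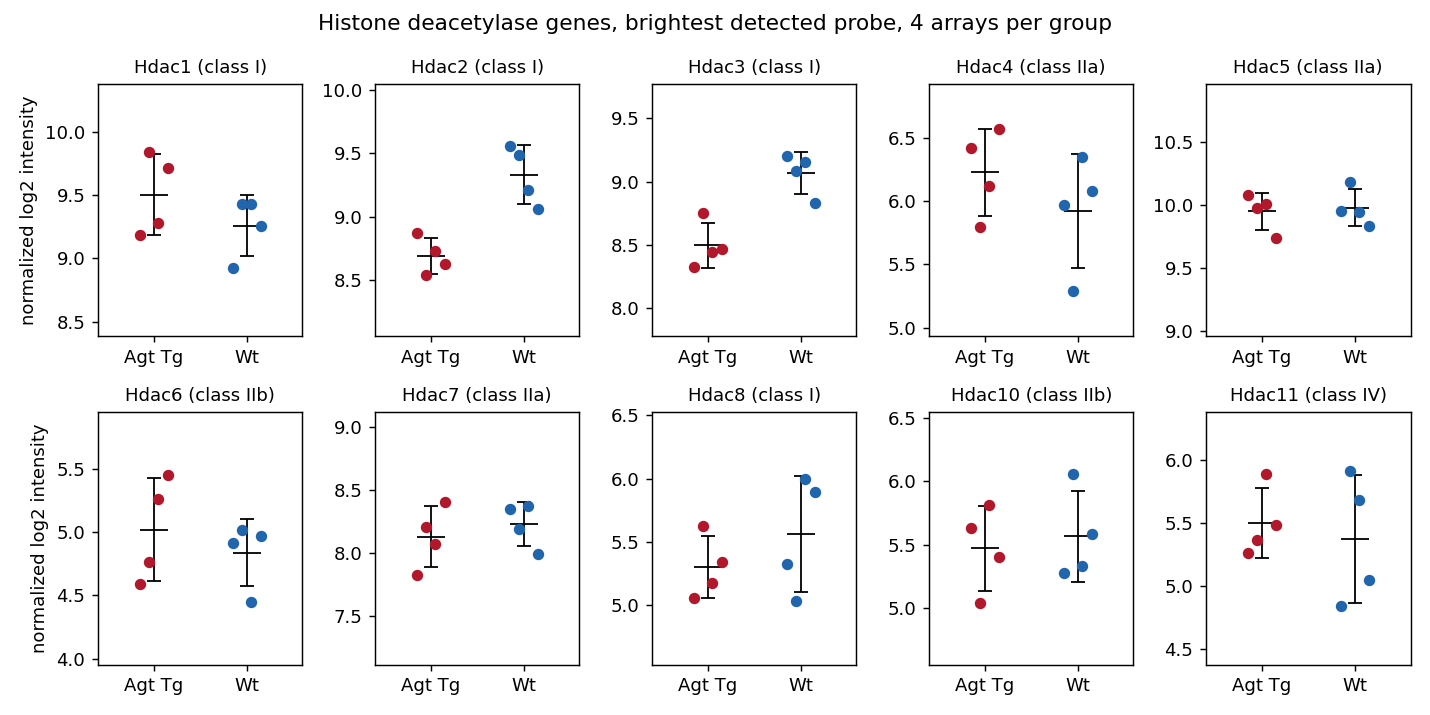
Normalized log2 intensity (vertical axis, each panel spans the same range of 2 log2 units) of the brightest kept probe of each histone deacetylase gene on 4 Agt Tg arrays (red) and 4 Wt arrays (blue), with the mean and SD in black. The groups separate for Hdac2 and Hdac3, with all Agt Tg arrays at or below 8.87 for Hdac2 and 8.75 for Hdac3, and they overlap for the other 8 genes.

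Hdac2, a class I enzyme found with Hdac1 in the Sin3, NuRD and CoREST complexes, read 8.87, 8.54, 8.73 and 8.63 on Agt Tg arrays, against 9.56, 9.49, 9.21 and 9.06 on Wt arrays. Every Agt Tg array lay below every Wt array. The means were 8.69 ± 0.14 on Agt Tg and 9.33 ± 0.23 on Wt arrays (SD, n = 4 each). The difference was -0.64 (SE 0.17, 95% interval -0.999 to -0.28), or 1.56-fold lower, with an adjusted p of 0.348 in limma over all kept probes. The exact two-sided permutation test over the 70 assignments of the arrays gave p = 0.0286, the smallest that 4 arrays against 4 allow. Groups that do not overlap always give that p, and 3.31% of all genes were lower with such groups. Before normalization the probe's intensity was 499, 451, 487 and 507 on Agt Tg arrays, against 1156, 827, 580 and 723 on Wt arrays, so the groups were apart in the raw signal too. Wt replicate 1, which had the highest Hdac2, was the brightest array, with a median intensity of 154 over all probes, against 125 to 143 on the other 7 arrays. Without it the Hdac2 difference was -0.57 (adjusted p = 0.719).

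Hdac3, the catalytic subunit of the NCoR corepressor complex, read 8.33, 8.75, 8.44 and 8.46 on Agt Tg arrays, against 9.20, 9.08, 9.15 and 8.83 on Wt arrays. The groups again did not overlap, though the gap between Agt Tg replicate 2 and Wt replicate 4 was small beside the spread of either group. The means were 8.50 ± 0.18 on Agt Tg and 9.07 ± 0.17 on Wt arrays (SD, n = 4 each), a difference of -0.57 (SE 0.16, 95% interval -0.92 to -0.22), or 1.49-fold lower. The adjusted p was 0.348 in limma, and the exact permutation p was again 0.0286, as groups that do not overlap always give. Raw intensities were 378, 503, 425 and 462 on Agt Tg arrays, against 921, 656, 563 and 631 on Wt arrays. Without Wt replicate 1 the difference was -0.53 (adjusted p = 0.719).

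Hdac1, the close relative of Hdac2 that shares its complexes, lay the other way. It read 9.19, 9.84, 9.28 and 9.71 on Agt Tg arrays, against 8.93, 9.43, 9.43 and 9.25 on Wt arrays. The groups overlapped, with 2 of the Agt Tg arrays above all Wt arrays. The difference was 0.24 (SE 0.19, 95% interval -0.17 to 0.66, adjusted p = 0.685), and the interval holds 0. The annotation also lists a pseudogene copy of Hdac1, and the array tables do not say whether the probe tells them apart.

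Hdac8, a class I enzyme that works outside these complexes and deacetylates the cohesin subunit Smc3, read 5.06, 5.62, 5.18 and 5.34 on Agt Tg arrays, against 5.33, 5.03, 6.00 and 5.90 on Wt arrays. The highest levels were on 2 Wt arrays and the groups overlapped (difference -0.26, SE 0.25, 95% interval -0.81 to 0.28, adjusted p = 0.756). The difference was -0.12 without Wt replicate 3, -0.44 without Wt replicate 2 and -0.076 without background correction. The probe was dim, with detection p-values up to 0.0439 on Agt Tg and 0.0376 on Wt arrays.

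The promoter of Hdac2 is shown as that of the member with the largest difference of the 10. The sequence comes from RefSeq (GRCm38.p6, chr10:36974294-36974543, plus strand) and covers the 250 bases before the gene's start, with each GC box (GGGCGG on either strand) in capitals.
Hdac2 promoter: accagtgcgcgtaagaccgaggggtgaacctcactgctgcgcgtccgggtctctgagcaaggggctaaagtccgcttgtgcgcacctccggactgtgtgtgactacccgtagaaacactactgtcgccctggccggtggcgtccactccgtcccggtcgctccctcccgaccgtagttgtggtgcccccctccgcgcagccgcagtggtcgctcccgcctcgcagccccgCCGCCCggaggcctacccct
It held 1 GC box, no CCAAT (either strand) and no CACGTG, and 68.8% of its bases were G or C. Over all 32851 promoter windows of this length, 32.7% held GGGCGG, 33.8% held CCAAT and 6.02% held CACGTG, and the median share of G and C was 52.4%. The motifs do not overlap one another, and a match describes the letters alone.

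Hdac4 was the member that the study followed. It read 6.42, 5.80, 6.12 and 6.57 on Agt Tg arrays, against 5.97, 5.29, 6.35 and 6.08 on Wt arrays. The groups overlapped, and 3 of the 4 Wt arrays lay between the lowest and the highest Agt Tg array. The means were 6.23 ± 0.34 on Agt Tg and 5.92 ± 0.45 on Wt arrays (SD, n = 4 each), a difference of 0.31 (SE 0.26, 95% interval -0.26 to 0.88, limma adjusted p = 0.718, exact two-sided permutation p = 0.343). The estimate itself was 1.24-fold higher, and the interval around it holds lower levels as well as levels above that estimate. Raw intensities were 177, 160, 176 and 205 on Agt Tg arrays, against 205, 136, 176 and 191 on Wt arrays, where the median over all probes was 125 to 154 per array, and the probe's detection p was highest, at 0.0188, on Wt replicate 2. That array also had the lowest Hdac4, and without it the difference was 0.10 (adjusted p = 0.916). On the log2 values that the authors deposited, which carry no background correction, the difference was 0.11.

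The microRNA is shown with its seed, bases 2 to 8, in capitals, since the seed is the part that pairs with a target transcript. It comes from RefSeq (GRCm38.p6, chr16:28599940-28599961, minus strand), and the arrays do not measure it.
mmu-miR-690: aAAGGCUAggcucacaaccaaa
The 250 bases before the start of Hdac4 (RefSeq, GRCm38.p6, chr1:92180342-92180591, minus strand) are given for comparison with Hdac2, again with GC boxes in capitals.
Hdac4 promoter: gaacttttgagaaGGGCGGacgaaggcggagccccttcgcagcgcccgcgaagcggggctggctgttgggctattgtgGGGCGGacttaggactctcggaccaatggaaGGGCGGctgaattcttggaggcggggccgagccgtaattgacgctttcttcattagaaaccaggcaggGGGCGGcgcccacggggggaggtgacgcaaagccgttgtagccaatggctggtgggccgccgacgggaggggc
This window held 4 GC boxes, 2 CCAAT and no CACGTG, and 65.2% of its bases were G or C.

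Of the other predicted miR-690 targets that the study followed, Map2k3, a kinase upstream of p38, did not overlap between groups (11.2 ± 0.06 on Agt Tg and 10.9 ± 0.17 on Wt arrays, SD, n = 4 each, difference 0.31, adjusted p = 0.480). Of all genes 3.05% were higher with groups that did not overlap. Mapk14, which encodes p38 alpha, differed by 0.20 (adjusted p = 0.664). Map3k7 was detected on 1 array and not kept, and Atf6 was not analysed here. With Hdac4 all 3 measured genes of this list had a difference above 0 and a median of 0.31. The study looked for predicted miR-690 targets by combining its array results with its miRNA sequencing. The list is therefore not independent of array data and gives no independent evidence of a direction. By RT-qPCR on WAT the study reported Hdac4, Map3k7 and Atf6 as higher and Map2k3 as lower in Agt Tg mice. It reported Mapk14 as higher, short of significance. That RT-qPCR had more replicates than the 4 arrays per group here. The Map2k3 difference on these arrays thus lay opposite to the study's RT-qPCR result, and the reason was not tested.

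Hdac5, the class IIa enzyme related to Hdac4, had 3 probes, all detected on every array. The brightest, ILMN_3112922, ranged from 9.73 to 10.08 on Agt Tg arrays and from 9.83 to 10.18 on Wt arrays (difference -0.03, SE 0.14, adjusted p = 0.962). The other two lay above 0, with a difference of 0.25 for ILMN_2659160 (SE 0.17, adjusted p = 0.647) and 0.20 for ILMN_1213290 (SE 0.23, adjusted p = 0.797). The groups overlapped at all 3 probes and each 95% interval held 0, so the probes disagree in sign within their error.

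Hdac7, a class IIa enzyme best known in endothelial cells and thymocytes, read 7.83, 8.21, 8.07 and 8.41 on Agt Tg arrays, against 8.35, 8.20, 8.37 and 8.00 on Wt arrays. The groups overlapped over most of their range (difference -0.10, SE 0.18, 95% interval -0.49 to 0.29, adjusted p = 0.884). Hdac9, the remaining class IIa gene, was not a member. Its 2 probes were detected on 0 and 1 of the 8 arrays, the one being Wt replicate 3 with a detection p of 0.00877, so no difference is given.

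In class IIb, Hdac6 had a probe, ILMN_2943818, that was detected on 2 Agt Tg and 2 Wt arrays. It read 4.59, 4.77, 5.27 and 5.45 on Agt Tg arrays, against 4.92, 5.02, 4.45 and 4.97 on Wt arrays (difference 0.18, SE 0.24, adjusted p = 0.833). Its other probe, ILMN_2770180, was not well above background on any array, with detection p-values of 0.256 to 0.553 on Agt Tg and 0.0514 to 0.717 on Wt arrays. Hdac10 was detected on 3 Agt Tg and 4 Wt arrays and ranged from 5.04 to 5.82 on Agt Tg and from 5.28 to 6.06 on Wt arrays (difference -0.09, SE 0.25, adjusted p = 0.927). Hdac11, the class IV enzyme, was detected on 4 Agt Tg and 3 Wt arrays and ranged from 5.26 to 5.89 on Agt Tg and from 4.85 to 5.91 on Wt arrays (difference 0.13, SE 0.27, adjusted p = 0.906). For these 3 dim genes the values are close to background and the intervals, such as -0.63 to 0.44 for Hdac10, hold differences in both directions.

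**Figure D2:**
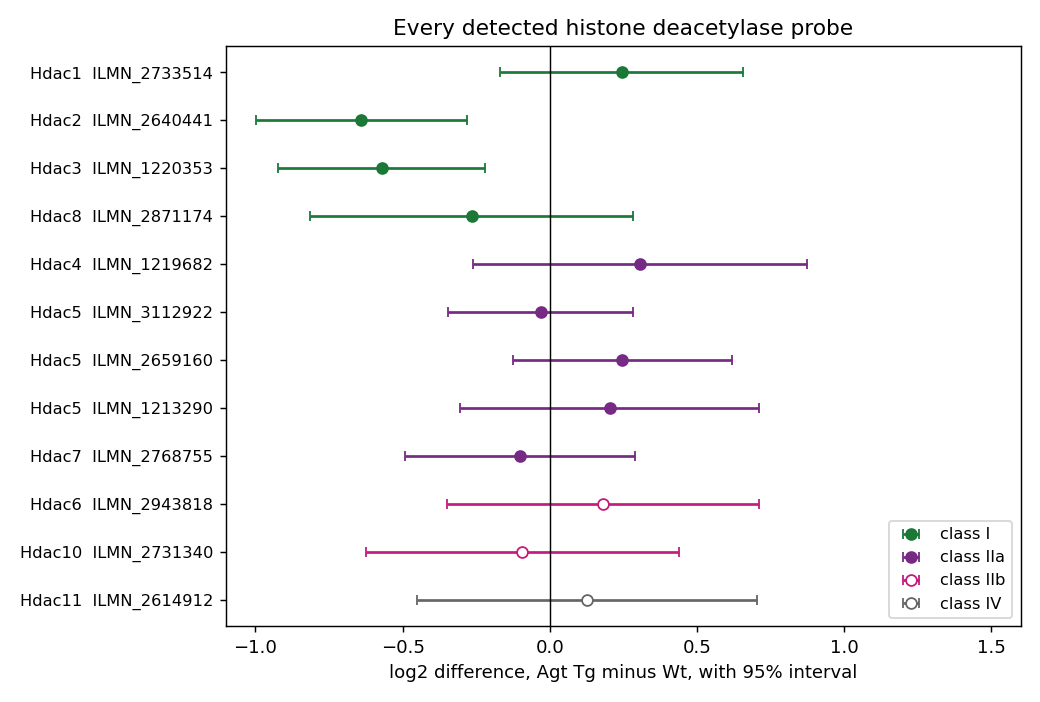
Log2 difference, Agt Tg minus Wt, with its 95% limma interval (horizontal axis) for each of the 12 kept histone deacetylase probes, coloured by class, with filled points for probes detected on all 8 arrays and open points for the others. The intervals of Hdac2 (-0.999 to -0.28) and Hdac3 (-0.92 to -0.22) lie below 0 before adjustment, and those of the other 10 probes hold 0.

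Set against each other, the class I genes had a median difference of -0.42 and the class II genes one of -0.03, a gap of -0.39. Of the 4 class I genes 3 were lower, from -0.64 for Hdac2, with Hdac1 at 0.24. Of the 5 class II genes 3 were lower and 2 higher, within -0.10 to 0.31. With each gene set relative to its Wt mean, the median of the class I genes was -0.50 to -0.13 over Agt Tg arrays and -0.12 to 0.13 over Wt arrays. For class II it was -0.07 to 0.20 over Agt Tg arrays and -0.04 to 0.18 over Wt arrays. The class I ranges lay next to each other, with the highest Agt Tg array at -0.129 and the lowest Wt array at -0.123, and they rest on Hdac2 and Hdac3, already described as separate. The class II ranges overlapped, and no test was made over so few genes. The class II median was 0.14 when a gene's probes were averaged, since Hdac5 then had a positive value.

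Levels of the members were not related in the same way across arrays. Over the 8 arrays the 45 pairs of members had Pearson correlations from -0.65 to 0.81 with a median of -0.01, and 22 were above 0. The highest was between Hdac2 and Hdac3 (r = 0.81), and after each group's mean was removed it was 0.10, so the arrays within a group shared little of it. Hdac2 and Hdac1 correlated at -0.64, and at -0.60 with the group means removed. On Agt Tg arrays the order of Hdac1 was the reverse of that of Hdac2, with replicate 2 lowest in Hdac2 and highest in Hdac1. The mean level of the macrophage markers was 10.28, 8.91, 10.28 and 9.32 on Agt Tg replicates 1 to 4, so replicates 1 and 3, the higher in Hdac2 and the lower in Hdac1, were also the higher in these markers. On Wt replicates 1 to 4 the marker level was 10.17, 9.60, 9.82 and 10.16. Hdac2 did not have that order on Wt arrays, with its lowest value on replicate 4, while Hdac1 had the reverse order. The split of the Agt Tg arrays was not particular to macrophages. On Agt Tg replicates 1 to 4 the mean level was 8.37, 6.88, 8.28 and 6.94 for mast cell markers. It was 9.94, 9.42, 9.96 and 9.66 for fibroblast markers. Adipocyte markers had the reverse split, at 11.61, 12.08, 11.46 and 12.05. The part of these cell types in the order of Hdac1 or Hdac2 was not tested. Hdac4 and Hdac5 had the lowest correlation (r = -0.65, and -0.66 with group means removed), and Wt replicate 2 was lowest in Hdac4 and highest in Hdac5. All correlations are descriptions over 8 arrays that share their processing.

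**Figure D3:**
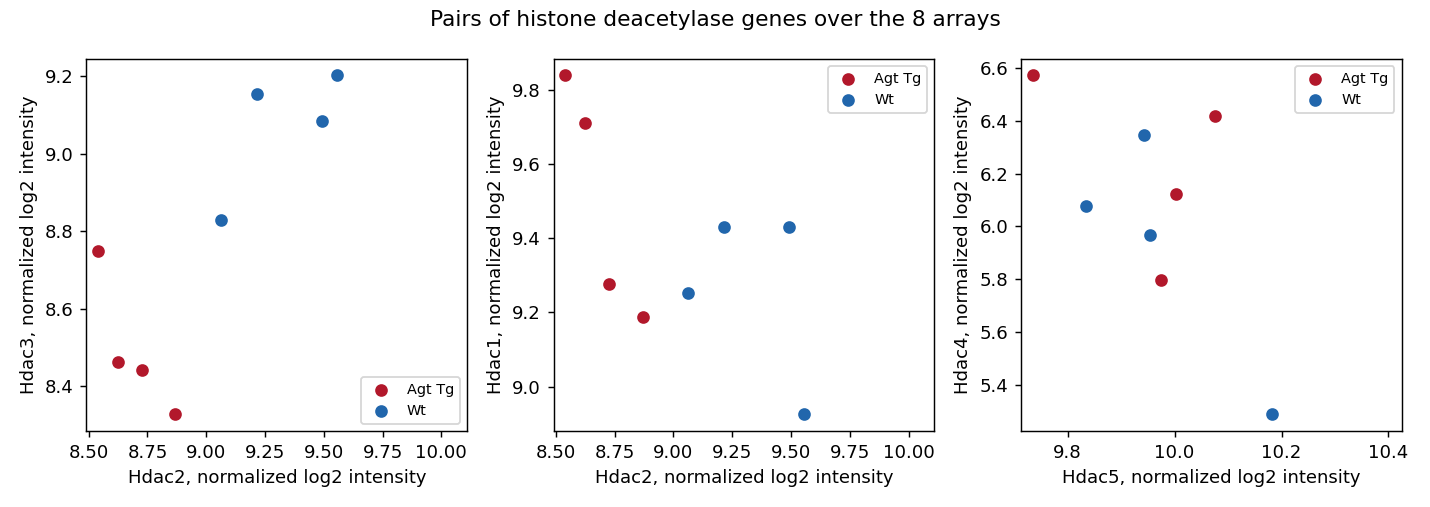
Normalized log2 intensity of pairs of histone deacetylase genes on the 4 Agt Tg (red) and 4 Wt (blue) arrays, with Hdac3 against Hdac2 (left, r = 0.81 over 8 arrays), Hdac1 against Hdac2 (middle, r = -0.64) and Hdac4 against Hdac5 (right, r = -0.65). The groups form separate clouds only in the left panel and along the Hdac2 axis of the middle one.

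Among all genes with a kept probe, the 5 most like Hdac4 over the 8 arrays were Gm5113 (r = 0.94), Pknox1, a homeobox transcription factor (r = 0.93), Folr1, a folate receptor (r = 0.93), Pik3r3, a regulatory subunit of PI3 kinase (r = 0.92), and Rnpep, an aminopeptidase (r = 0.91). Their differences were 0.23 to 0.38, and none passed the adjusted test (adjusted p = 0.618 to 0.743). All 5 were lowest on Wt replicate 2, as Hdac4 was. They were picked as the highest of 8284 correlations over 8 arrays, so a high r is given as a description.

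The complexes that hold class I enzymes were counted over all their measured genes, and none of the genes passed the adjusted test (limma). In the list for the NCoR complex of Hdac3, 3 genes were measured, 1 higher and 2 lower, with a median of -0.13. The 1 higher was Cops2 (difference 0.0014, adjusted p = 0.999), a subunit of the COP9 signalosome and not a core NCoR subunit. The scaffold Ncor1 was not analysed here, and Tbl1xr1 was detected on 0 arrays. The 2 lower were Tbl1x (difference -0.26, adjusted p = 0.786) and Gps2, a small NCoR subunit (difference -0.13, adjusted p = 0.847).

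In the Sin3 complex 9 of 14 genes were measured, 4 higher and 5 lower, with a median of 0.00 and none at an unadjusted p under 0.05. The scaffold Sin3a read 9.85 ± 0.17 on Agt Tg and 9.74 ± 0.14 on Wt arrays (difference 0.11, adjusted p = 0.835). The subunit Sap30 read 8.85 ± 0.71 on Agt Tg and 8.60 ± 0.18 on Wt arrays (SD, n = 4 each, difference 0.25, adjusted p = 0.798), with a wider spread on Agt Tg arrays, and without Agt Tg replicate 3 the difference was 0.00029.

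In NuRD, the remodelling complex, 6 of 10 genes were measured, 3 higher and 3 lower, with a median of 0.08, and 2 were higher at an unadjusted p under 0.05. Over all genes 3.93% were higher at that p (limma), and 3.05% were higher with groups that did not overlap. Mta3 did not overlap between groups (10.2 ± 0.23 on Agt Tg and 9.87 ± 0.10 on Wt arrays, SD, n = 4 each, difference 0.34, adjusted p = 0.505). Mbd3 was the other (difference 0.40, adjusted p = 0.505), and it is named after its values were seen. The helicase Chd4 differed by -0.03 (adjusted p = 0.969) and Mta2 by -0.34 (adjusted p = 0.673), so Mta2 and Mta3, alternative subunits, lay on opposite sides.

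In the CoREST complex 3 of 9 genes were measured, 2 higher and 1 lower, with a median of 0.30. Its demethylase Kdm1a differed by -0.05 (adjusted p = 0.942), and the scaffold Rcor1 was detected on 3 arrays and not kept.

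For the class IIa enzymes, 3 of 4 Mef2 genes were measured, 2 higher and 1 lower, with a median of 0.40. That median is the value of Mef2b, a dim gene detected on 3 Agt Tg arrays and 1 Wt array. It passed the filter mainly through the group where it read higher, and on the authors' log2 values its difference was 0.11. Mef2a had the largest difference of them, with 6.31 ± 0.41 on Agt Tg and 5.60 ± 0.38 on Wt arrays (SD, n = 4 each, difference 0.70, SE 0.26, adjusted p = 0.445), and its groups overlapped. Mef2c differed by -0.13 (adjusted p = 0.923) and Mef2d was detected on 1 array. Mef2a was the 1 Mef2 gene at an unadjusted p under 0.05, and on intensities that were quantile normalized without background correction the Mef2a difference was 0.24.

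Of the kinases that phosphorylate class IIa enzymes and the Ywha adaptors that hold them in the cytoplasm, 13 of 17 genes were measured, 7 higher and 6 lower, with a median of 0.05. At an unadjusted p under 0.05, 1 was higher and 3 were lower, all of them adaptors and all named after their values were seen. By that rule 3.93% of all genes were higher and 5.35% were lower (limma). Ywhaq read 7.26 ± 0.31 on Agt Tg and 7.98 ± 0.34 on Wt arrays (SD, n = 4 each, difference -0.72, adjusted p = 0.354). Ywhaz differed by -0.56 (adjusted p = 0.387), Ywhab by -0.41 (adjusted p = 0.480) and Ywhah by 0.49 (adjusted p = 0.461). The groups overlapped in all 4.

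Of the genes that Mef2 factors activate, 4 of 8 were measured, 1 higher and 3 lower, with a median of -0.08. Slc2a4, the insulin-responsive glucose transporter, read 8.66 ± 0.78 on Agt Tg and 8.86 ± 0.54 on Wt arrays (SD, n = 4 each, difference -0.20, adjusted p = 0.880). Nr4a1 was detected on 1 array and the coactivator Ppargc1a on 2, so neither was kept.

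Among other enzymes of the acetyl mark, 6 of 7 sirtuins, the NAD-dependent deacetylases, were measured, 2 higher and 4 lower, with a median of -0.10. Sirt1 differed by -0.05 (adjusted p = 0.961), Sirt2 by 0.08 (adjusted p = 0.913) and the mitochondrial Sirt3 by -0.35 (adjusted p = 0.676, and -0.12 without Wt replicate 3). Of 10 histone acetyltransferases 8 were measured, 4 higher and 4 lower, with a median of 0.00, and none had an unadjusted p under 0.05. Ep300 differed by -0.11 (adjusted p = 0.854), and Crebbp was not analysed here.

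**Figure D4:**
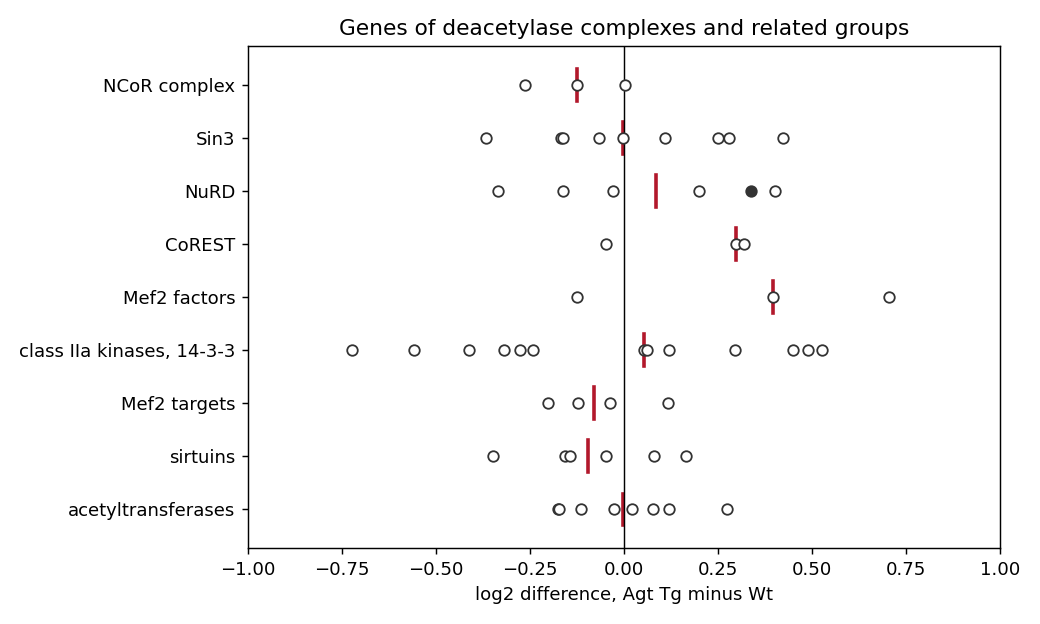
Log2 difference, Agt Tg minus Wt (horizontal axis), of each measured gene in complexes and groups around the deacetylases, 1 point per gene and 1 line of points per group, with the median as a red bar. The filled point, Mta3 at 0.34, is the gene whose groups do not overlap. The medians run from -0.13 (NCoR list, which includes Cops2) to 0.40 (Mef2 factors). The Mef2 median is the value of Mef2b, a dim gene detected on 3 Agt Tg arrays and 1 Wt array.

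WAT holds several cell types, and in bulk tissue fewer cells of a type and less RNA per cell cannot be told apart. Over all genes 48% were lower, 5.35% were lower at an unadjusted p under 0.05 (limma) and 3.31% were lower with groups that did not overlap. B and plasma cell markers were lower on Agt Tg arrays in 5 of 5 measured genes of 9, 3 of them at that p. Fcer2a, 1 of these 3, was detected on 1 Agt Tg and 3 Wt arrays, so it passed the filter mainly through the group where it was higher. The mean level of the B and plasma cell markers was 4.81 to 6.79 on Agt Tg and 5.96 to 8.31 on Wt arrays. Mzb1, made by plasma cells, did not overlap between groups (difference -1.996, adjusted p = 0.348), while Ms4a1, Jchain and Cr2 were at background on most arrays and not kept. T and NK cell markers were lower in 6 of 6 measured genes of 10, 2 of them at an unadjusted p under 0.05. Cd3d, 1 of these 2, was detected on 2 Agt Tg and 4 Wt arrays, so it too passed the filter mainly through the group where it was higher. The mean level of the T and NK cell markers was 5.57 to 6.51 on Agt Tg and 6.07 to 7.02 on Wt arrays. Cd8a and Gzma were detected on 0 arrays. The B cell marker level was 5.45, 4.81, 5.72 and 6.79 on Agt Tg replicates 1 to 4 and 7.08, 6.39, 5.96 and 8.31 on Wt replicates 1 to 4. It did not have the order of Hdac2 in either group. Of the Agt Tg arrays, replicate 4 had the highest marker level and replicate 1 the highest Hdac2, while replicate 2 was lowest in both. Of the Wt arrays, replicate 4 had the highest marker level and the lowest Hdac2, while replicates 1 to 3 had the same order in both. The part of lymphocytes in the Hdac2 and Hdac3 differences was not tested.

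Macrophage markers were higher in 5 and lower in 8 of 13 measured genes of 16, with a mean level of 8.91 to 10.3 on Agt Tg and 9.60 to 10.2 on Wt arrays. Cd163, a scavenger receptor, did not overlap between groups (difference -1.20, adjusted p = 0.224). Of all genes 3.31% were lower with groups that did not overlap. Of 10 measured endothelial markers of 11, 8 were lower, with a mean level of 8.64 to 9.09 on Agt Tg and 8.92 to 9.14 on Wt arrays, and Vwf (difference -0.33) and Ptprb (difference -0.60) did not overlap. All 4 measured mast cell markers of 5 were higher (mean level 6.88 to 8.37 on Agt Tg and 5.99 to 7.80 on Wt arrays), none at an unadjusted p under 0.05. Medians of the remaining marker lists were -0.02 for fibroblasts, -0.17 for smooth muscle, 0.33 for mesothelium and -0.07 for red blood cells. Of the skeletal muscle markers only Acta1 was kept (difference -0.08), and of those of epididymis and testis only Adam7 (4.53 to 5.97 on Agt Tg and 4.56 to 5.70 on Wt arrays), with Lcn5, Prm1 and Tnp1 detected on 0 arrays. The adipocyte markers had a median difference of 0.03. The part of these cell types in the Hdac2 and Hdac3 differences was not tested.

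**Figure D5:**
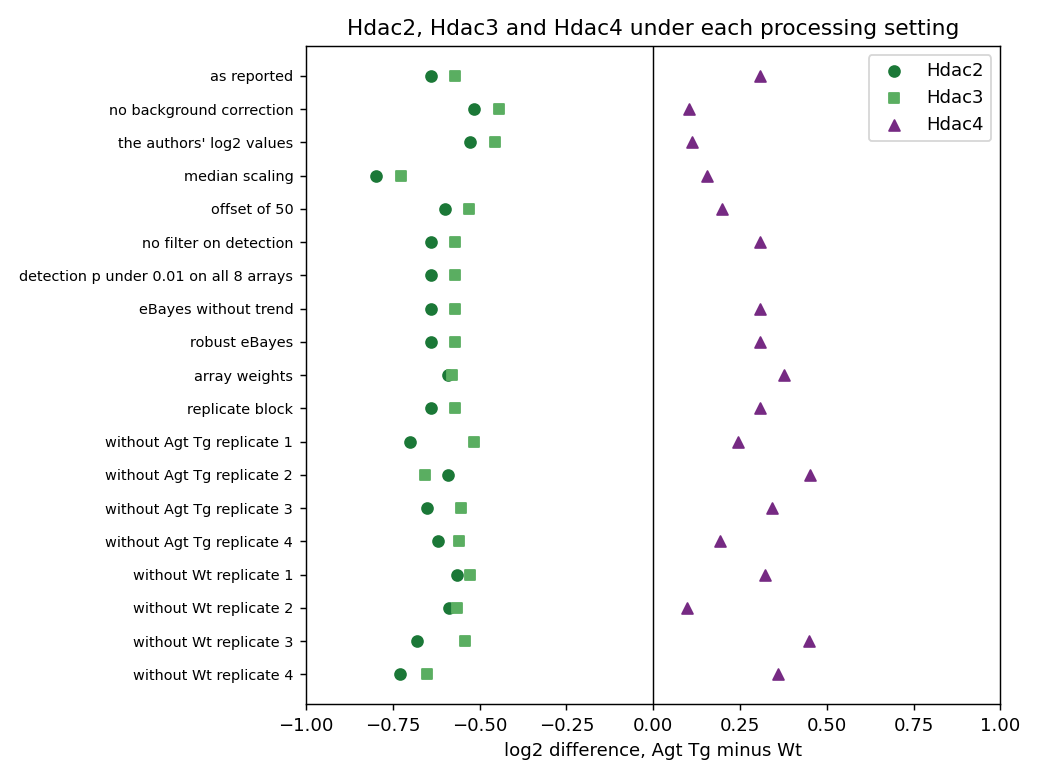
Log2 difference, Agt Tg minus Wt (horizontal axis), of Hdac2, Hdac3 and Hdac4 as reported and under each processing setting or with 1 array left out (vertical axis). Hdac2 stayed between -0.80 and -0.52 and Hdac3 between -0.73 and -0.44, while Hdac4 lay between 0.10 and 0.45 and has no value under the strictest detection filter.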

How the data were processed

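Biotin-labelled RNA of the 8 WAT samples had been hybridised to Illumina mouse arrays. The deposited tables held bead intensity values on a linear scale, not normalized, with 1 detection p-value per probe and array, and log2 values that the authors had made with lumi (version not given in the sources used). Those log2 values kept the ranks of the intensities and matched their quantile normalization. Probes were named through the platform annotation and RefSeq (GRCm38.p6). 1 blank row was left out.

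Intensities were processed with neqc of limma 3.58.1 in R 4.3.3 (normexp background with inferred negative controls, quantile normalization, offset of 16). Probes were fitted with lmFit and eBayes with trend, with group as the only factor, and the Benjamini-Hochberg adjustment ran over all 11624 probes kept. The fit was run on simulated data with independent noise for each probe and array, so that run did not cover effects that many probes share. Background correction and the offset make differences of dim probes uncertain, and 4 arrays per group limit the precision.

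The members and gene lists were chosen with earlier results of these data known. Named were every member probe, fixed partners of each complex, list genes whose groups did not overlap and the 5 genes most like Hdac4.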

Additional observations from a re-analysis of the deposited data

Results flagged for a closer look

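In groups of 4 arrays, 6 of 82 groups tried had 1 array far from the other three, where chance gives about 1 in 20. None of them was a histone deacetylase probe. Kdm1a read 8.56 on Wt replicate 1, with the nearest Wt array at 8.86. Ywhab read 11.7 on Agt Tg replicate 1 (nearest 11.4). Ywhah read 11.2 on Agt Tg replicate 2 (nearest 11.8) and 10.8 on Wt replicate 3 (nearest 11.3). Gm5113 and Rnpep, both chosen for their likeness to Hdac4, read 4.60 (nearest 5.17) and 9.005 (nearest 9.66) on Wt replicate 2, the array with the lowest Hdac4.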

How the results depend on the processing

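Across 18 settings the counts at adjusted p (0 of all probes, 0 of Hdac probes) and of member genes at unadjusted p (2) stayed the same, leaving out any array included, and the Hdac2 and Hdac3 differences kept their sign. The count of all probes at unadjusted p was 1145, 2126 with no filter on detection, and 742 to 1328 with 1 array left out, the lowest without Wt replicate 1. The class I median difference was -0.26 without background correction, -0.27 on the authors' log2 values and -0.57 with detection p under 0.01 on all 8 arrays, a filter that leaves Hdac4, Hdac6, Hdac8, Hdac10 and Hdac11 without a value. The class II median was -0.15 under median scaling, which moved the median of all probes to -0.13, and 0.14 with a gene's probes averaged. With 1 array left out, the class I median was -0.50 to -0.33, the class II median -0.079 to 0.072, their gap -0.58 to -0.29 (-0.23 without background correction, against -0.39) and the Hdac4 difference 0.10 to 0.45.

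Reversed signs were seen for differences between -0.20 (Slc2a4) and 0.13 (Hdac11). They were 0.016 with array weights for the brightest Hdac5 probe, and under median scaling -0.013 for Sin3a and -0.072 for Sirt2. With 1 array left out, the range crossed 0 for that Hdac5 probe (-0.079 to 0.040), Hdac10 (-0.21 to 0.072), Hdac11 (-0.048 to 0.31), Chd4 (-0.090 to 0.066), Mef2c (-0.34 to 0.063), Sirt1 (-0.19 to 0.064), Sirt2 (-0.038 to 0.16) and Slc2a4 (-0.47 to 0.043). The cause was not tested.

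With the replicate number as a block, the Hdac4 difference was 0.31 (adjusted p = 0.596), that of Hdac2 -0.64 (adjusted p = 0.226) and no call changed. The count of all probes at unadjusted p (limma) was 1368 with the block, against 1145. Deviations of arrays with the same number correlated at 0.333, 0.388, -0.037 and -0.082. Of the 8 arrays 4 correlated best with their own number. The labels do not say what the numbers mark, so whether they pair the arrays is not known. The settings for members at unadjusted p and for genes that are no members were added after seeing the data.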
